A study of Homo sapiens with 6 samples.

Results

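PCNA, ADK, ANAPC13, BCKDK, WASF1 and EPHA4 are 6 genes of enzymes, signalling proteins and other cell machinery, and each has a pair of mRNA isoforms that gained C-to-U editing unequally in RBFOX2-INSCRIBE. They were picked on edited Cs, from the contrast of RBFOX2-INSCRIBE with the enzyme-only control, and every isoform of GENCODE release 44 with at least 1 deposited edit in any library was kept. This gave 13 isoforms of 9831 in the series, from 6 genes of 7682, and 718 listed edits of 839700. Because the pairs were chosen for that contrast, its values are given below as a description without a test.

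The samples were long-read libraries of HEK293T cells (given as HEK293XT in the cell line label), an immortalized human embryonic kidney line grown in culture and fixed in methanol. INSCRIBE directs Apo1-Nb, a purified fusion of the cytosine deaminase APOBEC1 with a nanobody, to a rabbit antibody that is bound to the protein of interest, so that Cs near that protein are read as U. The 3 groups held 2 libraries each: RBFOX2-INSCRIBE (anti-RBFOX2 antibody and Apo1-Nb; replicates 1 and 2), enzyme-only (Apo1-Nb with no antibody; replicates 2 and 3 by their titles) and buffer-only (neither antibody nor enzyme; replicates 1 and 2). Values for 6 libraries are given in that order throughout. All 6 libraries come from 1 cell line, and no genetic difference between the groups was named. The p-values thus measure the spread between these samples, which may be technical.

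RBFOX2 is a splicing regulator that binds UGCAUG and the shorter GCAUG in introns, where it steers exon choice, and also in 3′ UTRs. An isoform is one of the several mRNAs that a gene makes through alternative start sites, splicing or ends. Isoforms that share their coding sequence can still differ in the 5′ UTR, which influences how well an mRNA is translated, and full-length reads tie each edit to the isoform it lies on.

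An edited C here is a distinct position in the exons and on the strand of its isoform, listed with an edit fraction, the share of that isoform's reads that carry the edit. The libraries held 203651, 209077, 86379, 155189, 73078 and 71769 edited Cs over all isoforms, and the 6 genes held 182, 192, 98, 113, 56 and 64 of them. The files hold no numbers of reads, so the depth behind each value is not given directly. More reads of an isoform and more editing per read cannot be told apart in a count of edited Cs alone. Of the 6 markers listed for HEK293 cells, KRT18, VIM, NEFM and LIN28B had listed isoforms and PAX2 and KRT8 did not, whereas 0 of 6 markers of liver, blood, astrocytes or fibroblasts had any.

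Of 343 isoform positions edited in either RBFOX2-INSCRIBE library, 31 were edited in both, and 26 of these were listed in no control library. The enzyme-only pair shared 4 of 207 positions and the buffer-only pair 1 of 119. Such shares were not taken over all isoforms of the series, so these counts are no result about the chosen genes. Over all isoforms the RBFOX2-INSCRIBE libraries also held more edited Cs, 203651 and 209077, against 86379 and 155189 in enzyme-only and 73078 and 71769 in buffer-only libraries. The part of these totals in the shared and control-free positions was not tested. EPHA4 held 0 of the 31. The windows below show 9 of them, from each of the other 5 genes, as DNA letters of the mRNA strand (hg38) with the edited C in capitals. They let the base before the edited C and nearby GCAUG be read directly.
PCNA-201, coding, chr20:5118808-5118832, minus strand: gatatcattacaCtaagggccgaag
ADK-205, 3′ UTR, chr10:74708571-74708595, plus strand: atttagagggtaCaagggtatggta
ADK-205, 3′ UTR, chr10:74708606-74708630, plus strand: aatctttattatCtcaacaatctaa
ANAPC13-204, 3′ UTR, chr3:134478027-134478051, minus strand: aaagatatctgaCagttaatctctg
BCKDK-201, coding, chr16:31109720-31109744, plus strand: ccgcatcaagggCttccgctgcctt
WASF1-202, 3′ UTR, chr6:110100481-110100505, minus strand: aatattacaaaaCtgaatgcaaatg
WASF1-202, 3′ UTR, chr6:110100072-110100096, minus strand: tacgaatacactCagaaagtacatt
WASF1-205, 3′ UTR, chr6:110099880-110099904, minus strand: gaaatactctgaCttaaacatacat
WASF1-205, 3′ UTR, chr6:110100255-110100279, minus strand: attaagcatggaCagctgttgttag
An A or U stands before the edited C in 8 of these 9 windows, and a G in the BCKDK-201 window. In the last WASF1-205 window GCAUG ends 3 nt before the edited C, and this position was also listed in enzyme-only replicate 3. The other 8 were listed in no enzyme-only or buffer-only library.

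**Figure D1:**
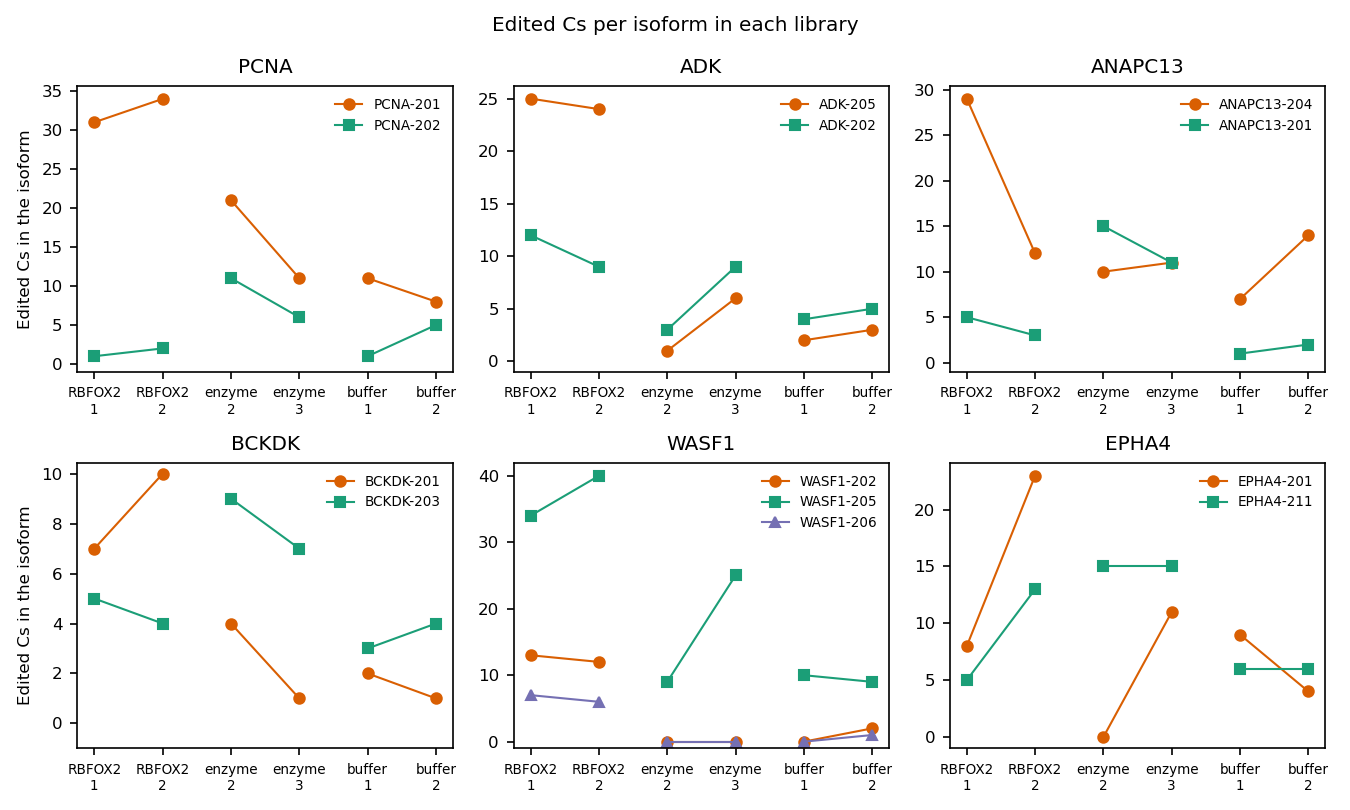
Edited Cs (vertical axis) of each isoform in each library (horizontal axis), with 1 panel per gene and a line joining the 2 libraries of a group. WASF1-202 had 13 and 12 edited Cs in RBFOX2-INSCRIBE and 0 in both enzyme-only libraries, and PCNA-202 had 1 and 2 against 11 and 6.

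PCNA encodes the sliding clamp that holds DNA polymerases on the replicating strand. Its 2 isoforms share the coding sequence of 786 nt and the 3′ UTR of 330 nt, and differ in the first part of the 5′ UTR: 44 nt at chr20:5119915-5119958 for PCNA-201 (ENST00000379143) and 127 nt at chr20:5126500-5126626 for PCNA-202 (ENST00000379160). PCNA-201 had 31 and 34 edited Cs in RBFOX2-INSCRIBE, 21 and 11 in enzyme-only and 11 and 8 in buffer-only libraries, out of 274 Cs. PCNA-202 had 1 and 2, 11 and 6, and 1 and 5 edited Cs, out of 306 Cs. The 2 isoforms thus lay in opposite orders: both RBFOX2-INSCRIBE libraries were above both enzyme-only libraries for PCNA-201 and below both for PCNA-202.

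ADK encodes adenosine kinase, which returns adenosine to AMP. Its pair differs in the first exon, which sets the N-terminus of the enzyme: 123 nt at chr10:74151221-74151343 for ADK-205 (ENST00000539909) and 124 nt at chr10:74176763-74176886 for ADK-202 (ENST00000372734). ADK-205 had 25 and 24 edited Cs in RBFOX2-INSCRIBE, 1 and 6 in enzyme-only and 2 and 3 in buffer-only libraries. ADK-202 had 12 and 9, 3 and 9, and 4 and 5. ADK-205 was thus the more edited isoform in both RBFOX2-INSCRIBE libraries and the less edited one in the 4 control libraries.

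ANAPC13 encodes a small subunit of the anaphase-promoting complex, the ubiquitin ligase that drives exit from mitosis. Its isoforms share a coding sequence of 225 nt and a 3′ UTR of 884 nt, and ANAPC13-204 (ENST00000510994) holds 670 further nt of 5′ UTR, of which 632 lie at chr3:134485320-134485951. ANAPC13-204 had 29 and 12 edited Cs in RBFOX2-INSCRIBE, 10 and 11 in enzyme-only and 7 and 14 in buffer-only libraries. ANAPC13-201 (ENST00000354910) had 5 and 3, 15 and 11, and 1 and 2. The enzyme-only libraries stood out here, as the 2 with the most edited Cs on ANAPC13-201.

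BCKDK encodes the kinase that switches off the branched-chain ketoacid dehydrogenase in mitochondria. BCKDK-203 (ENST00000394950) has 92 nt of 5′ UTR of its own at chr16:31108294-31108385 and 93 nt around the stop codon at chr16:31112028-31112120, and BCKDK-201 (ENST00000219794) has 224 nt of 3′ UTR of its own at chr16:31112568-31112791. Their coding sequences are 1098 and 1239 nt long. BCKDK-201 had 7 and 10 edited Cs in RBFOX2-INSCRIBE, 4 and 1 in enzyme-only and 2 and 1 in buffer-only libraries. BCKDK-203 had 5 and 4, 9 and 7, and 3 and 4. No count of either isoform was above 10, so each value rests on few positions.

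WASF1 encodes WAVE1, a subunit of the complex through which Rac starts branched actin growth. Its 3 isoforms share a coding sequence of 1680 nt and a 3′ UTR of 703 nt and differ in the 5′ UTR, which is 292 nt long in WASF1-205 (ENST00000392587), 692 nt in WASF1-202 (ENST00000359451) and 739 nt in WASF1-206 (ENST00000392588). WASF1-205 had 34 and 40 edited Cs in RBFOX2-INSCRIBE, 9 and 25 in enzyme-only and 10 and 9 in buffer-only libraries. WASF1-202 had 13 and 12, 0 and 0, and 0 and 2. WASF1-206 had 7 and 6, 0 and 0, and 0 and 1. The isoforms with the longer 5′ UTRs were thus listed as edited almost entirely in RBFOX2-INSCRIBE, although WASF1-205 remained the most edited isoform in all 6 libraries. With each enzyme-only library set to an assumed 3 edited Cs, the RBFOX2-INSCRIBE mean was 4.17-fold higher for WASF1-202 and 2.17-fold for WASF1-206. These folds are no lower bounds, because a library without a listed edit does not show whether the isoform was read.

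EPHA4 encodes a receptor tyrosine kinase for ephrins that guides axons and sorts cells at tissue boundaries. EPHA4-201 (ENST00000281821) is the full coding mRNA of 6362 nt in 18 exons, and EPHA4-211 (ENST00000469354) is a transcript of 2893 nt with no defined coding sequence that lies wholly within the 3′ UTR of EPHA4-201. EPHA4-201 had 8 and 23 edited Cs in RBFOX2-INSCRIBE, 0 and 11 in enzyme-only and 9 and 4 in buffer-only libraries. EPHA4-211 had 5 and 13, 15 and 15, and 6 and 6. Replicates of 1 group spread widely for EPHA4-201, and the 0 in enzyme-only replicate 2, the library with the fewest edited Cs of those with enzyme, sets much of the values below.

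**Figure D2:**
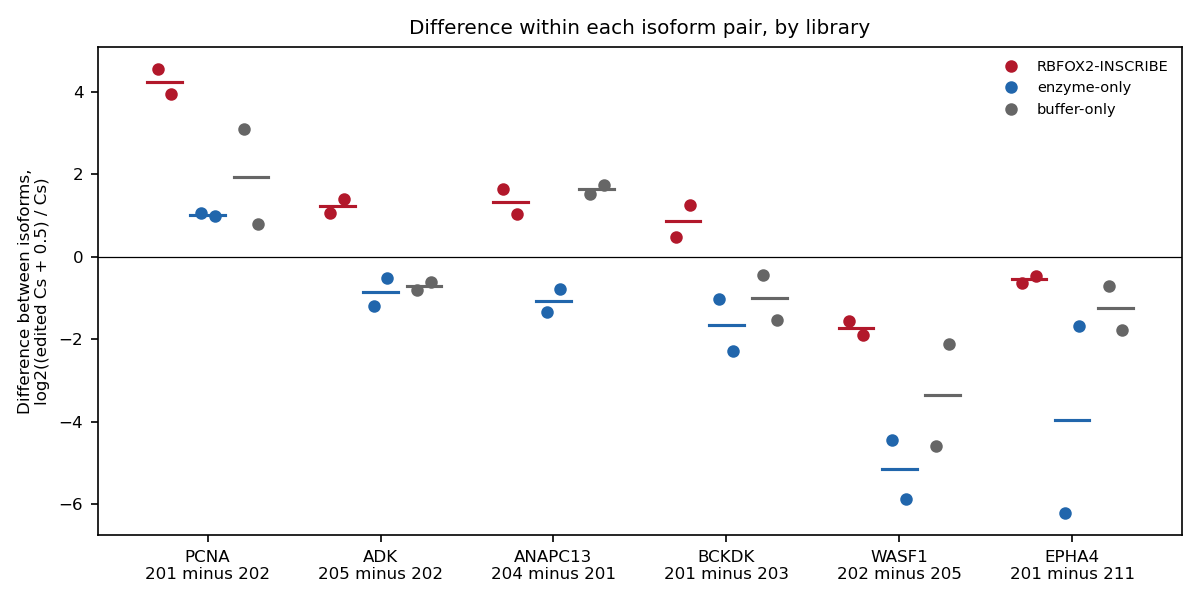
Difference between the 2 isoforms of each gene in log2 of edited Cs plus 0.5 per C (vertical axis), for each library (points) and the mean of each group (short lines). In the 6 genes the RBFOX2-INSCRIBE points lie above the enzyme-only points, as the choice of genes requires, and for ANAPC13 the buffer-only points lie beside those of RBFOX2-INSCRIBE.

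For each pair, the difference in log2((edited Cs + 0.5) / Cs) was taken in every library, the isoform with the larger gain minus the other. For PCNA the difference was 4.55 and 3.95 in RBFOX2-INSCRIBE, 1.06 and 0.98 in enzyme-only and 3.10 and 0.79 in buffer-only libraries. For ADK it was 1.07 and 1.41, -1.18 and -0.51, and -0.81 and -0.61. For ANAPC13 it was 1.64 and 1.05, -1.35 and -0.79, and 1.53 and 1.75. For ADK the 2 kinds of control overlapped, whereas for ANAPC13 the enzyme-only libraries lay below the other 4.

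For BCKDK the difference was 0.49 and 1.27 in RBFOX2-INSCRIBE, -1.03 and -2.28 in enzyme-only and -0.44 and -1.54 in buffer-only libraries. For WASF1 it was -1.55 and -1.89, -4.44 and -5.87, and -4.58 and -2.12. For EPHA4 it was -0.63 and -0.46, -6.21 and -1.69, and -0.71 and -1.79. In WASF1 and EPHA4 the isoform with the larger gain had fewer edited Cs per C than its partner in each of the 6 libraries.

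Between RBFOX2-INSCRIBE and enzyme-only means, this difference was 3.23 for PCNA, 2.08 for ADK, 2.41 for ANAPC13, 2.53 for BCKDK, 3.44 for WASF1 and 3.41 for EPHA4 on the log2 scale. Their sizes ranked 15, 65, 37, 32, 9 and 11 among 581 genes with a pair of isoforms of a mean of at least 5 edited Cs, so they were among the larger differences and not the largest. The libraries of the 2 groups did not overlap in the 6 pairs, as in 37.2% of the 581 genes, and the choice of the members fixes this. Across all 581 genes limma called 0 pairs at an adjusted p under 0.05, with 27 (4.65%) at an unadjusted p under 0.05. With both enzyme-only libraries of WASF1-202 set to 3 edited Cs, its difference was 0.63, and without enzyme-only replicate 2 that of EPHA4 was 1.14.

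The buffer-only libraries had no part in the choice of the genes, although the RBFOX2-INSCRIBE libraries did, so the next comparison is only partly independent of it. Against buffer-only, the difference was 2.31 for PCNA, 1.95 for ADK, -0.30 for ANAPC13, 1.87 for BCKDK, 1.63 for WASF1 and 0.71 for EPHA4. Both RBFOX2-INSCRIBE libraries lay above both buffer-only libraries in 5 of the 6 pairs, all but ANAPC13. Of the 581 genes, 38.6% had no overlap between these groups, in one direction or the other. ADK, WASF1 and EPHA4 passed the filter on low values in this comparison. The pairs of ADK and WASF1 did so only through the RBFOX2-INSCRIBE libraries. Buffer-only means were 2.5 edited Cs for ADK-205, 4.5 for ADK-202 and 1 for WASF1-202. Their pair differences are thus values with no test. The EPHA4 pair did not pass the test (limma adjusted p 0.76). Over all 531 genes tested 1 pair was called (0.188%), and 49 (9.23%) had an unadjusted p under 0.05. With a minimum mean of 1 edited C the 6 pairs could be tested, and limma gave adjusted p between 0.76 for PCNA, ADK and BCKDK and 0.98 for ANAPC13.

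Between enzyme-only and buffer-only, the pair difference moved by -2.71 for ANAPC13, and the 2 groups did not overlap. In the other 5 pairs the groups overlapped, and 34.3% of the 581 genes were without overlap. With 1 buffer-only library left out, the pair difference between RBFOX2-INSCRIBE and buffer-only lay, for WASF1, between 0.40 and 2.87, and, for EPHA4, between 0.17 and 1.24.

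Taken isoform by isoform, 6 of the 9 member isoforms that passed the filter had more edited Cs in RBFOX2-INSCRIBE than without enzyme and antibody (limma adjusted p under 0.05), beside 60.0% of the 5361 isoforms tested, and 0 had fewer, beside 0.0746%. These counts are near the background and are no result about the genes. The median log2 difference over all isoforms tested was 1.57.

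ADK-205, WASF1-202, BCKDK-201 and ADK-202 had buffer-only means of 2.5, 1, 1.5 and 4.5 edited Cs and reached the minimum mean of 5 only through the RBFOX2-INSCRIBE libraries, so a rise is built into the filter. Their log2 differences, 3.08, 3.54, 2.20 and 1.131, are given as values with no test, and that of WASF1-202 depends on the added 0.5 because 1 buffer-only library was at 0. WASF1-205 rose by 1.90 ± 0.34 on the log2 scale (SE, n = 2 against 2 libraries, limma adjusted p = 0.0026). PCNA-201 rose by 1.74 ± 0.25 (limma adjusted p = 0.0012), and both had buffer-only means of 9.5. The RBFOX2-INSCRIBE libraries had a part in the choice of the genes, so these tests are only partly independent of it. EPHA4-201 (1.11 ± 0.74), ANAPC13-204 (0.88 ± 0.50) and EPHA4-211 (0.41 ± 0.57) did not pass, with limma adjusted p of 0.22, 0.15 and 0.54. The other 4, PCNA-202, ANAPC13-201, BCKDK-203 and WASF1-206, had too few edited Cs for this comparison. Once each library was scaled to the same total, ADK-202, EPHA4-201, EPHA4-211 and ANAPC13-204 had values below 0 against buffer-only, and PCNA-201, WASF1-205 and ADK-205 stayed above 0 at 0.27, 0.44 and 1.70 and no longer passed. WASF1-202 and BCKDK-201 fell below the filter on low values after scaling. Leaving out either RBFOX2-INSCRIBE library ended the 6 calls, with adjusted p between 0.084 and 0.31.

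In enzyme-only against buffer-only libraries, 1 of the 9 member isoforms tested, ANAPC13-201, had more edited Cs (limma adjusted p under 0.05), beside 0.812% of 4436 isoforms. It had a buffer-only mean of 1.5 and passed the filter only through the enzyme-only libraries, which were also used in choosing the pair, so its log2 difference of 2.79 is given as a value with no test. PCNA-202 followed with 1.59. Its buffer-only mean was 3 edited Cs and it too passed the filter only through the enzyme-only libraries, so this is also a value with no test. Across all 5715 isoforms tested between RBFOX2-INSCRIBE and enzyme-only, 3 (0.0525%) were called higher.

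The 2 isoforms of a pair share most of their bases, except that EPHA4-201 has 2893 shared and 3469 unshared bases. On shared bases the counts can be compared on identical sequence. The 6 pairs held 5294 Cs in shared bases, counted once per isoform, of which 167, 170, 90, 101, 53 and 54 were edited in the 6 libraries. The 1276 Cs in bases of 1 isoform alone had 8, 16, 8, 12, 3 and 9 edited. Edited Cs thus made up 3.15% and 3.21% of shared Cs in RBFOX2-INSCRIBE and 0.627% and 1.25% of isoform-specific Cs. Of the isoform-specific Cs, 792 belong to EPHA4-201 alone, with 0 and 7 edited in RBFOX2-INSCRIBE. The pooled shares thus mix genes and mRNA regions and are no result about isoform-specific sequence as such.

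Within shared bases the difference between RBFOX2-INSCRIBE and enzyme-only was 3.24 for PCNA, 1.73 for ADK, 2.93 for ANAPC13, 3.33 for BCKDK, 3.38 for WASF1 and 3.68 for EPHA4. Shared bases hold most of the edited Cs on which the pairs were picked, so these values are a description. Against buffer-only, the difference within shared bases was 2.28 for PCNA, 1.94 for ADK, -0.17 for ANAPC13, 2.66 for BCKDK, 1.57 for WASF1 and 1.04 for EPHA4. In PCNA, the 127 nt of PCNA-202 alone had 0 edited Cs in the 6 libraries, and the 44 nt of PCNA-201 alone had 1 in RBFOX2-INSCRIBE replicate 1 and 1 in enzyme-only replicate 2. The 302 nt at chr6:110179703-110180004 by which WASF1-202 extends beyond the 5′ end of WASF1-205, with 81 Cs, had 0 edited Cs on WASF1-202 in the 6 libraries.

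The 632 nt of the 5′ UTR of ANAPC13-204 that ANAPC13-201 lacks had 6, 3, 5, 5, 1 and 6 edited Cs of 159. The first exon of ADK-205 had 1, 0, 0, 1, 0 and 0, and that of ADK-202 had 0, 2, 2, 0, 0 and 1. The stretches of EPHA4-201 outside EPHA4-211 had 0, 7, 0, 6, 2 and 2 of 792 Cs. In none of the 28 isoform-specific stretches did both RBFOX2-INSCRIBE libraries exceed each of the 4 controls.

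Over the 6 pairs and 6 libraries, the same position was edited on both isoforms of a pair in 1 library 19 times. This is 5.18% of 367 edited Cs on the isoforms with the larger gain and 5.86% of 324 on their partners. The number to be met by independent placement, and the share over all pairs of the series, were not taken. The counts thus do not show whether such overlap was rare or frequent. ADK had 5 such positions in RBFOX2-INSCRIBE replicate 1, WASF1 had 2 and 5 in the RBFOX2-INSCRIBE libraries, and ANAPC13 and BCKDK had 0 in the 6 libraries.

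**Figure D3:**
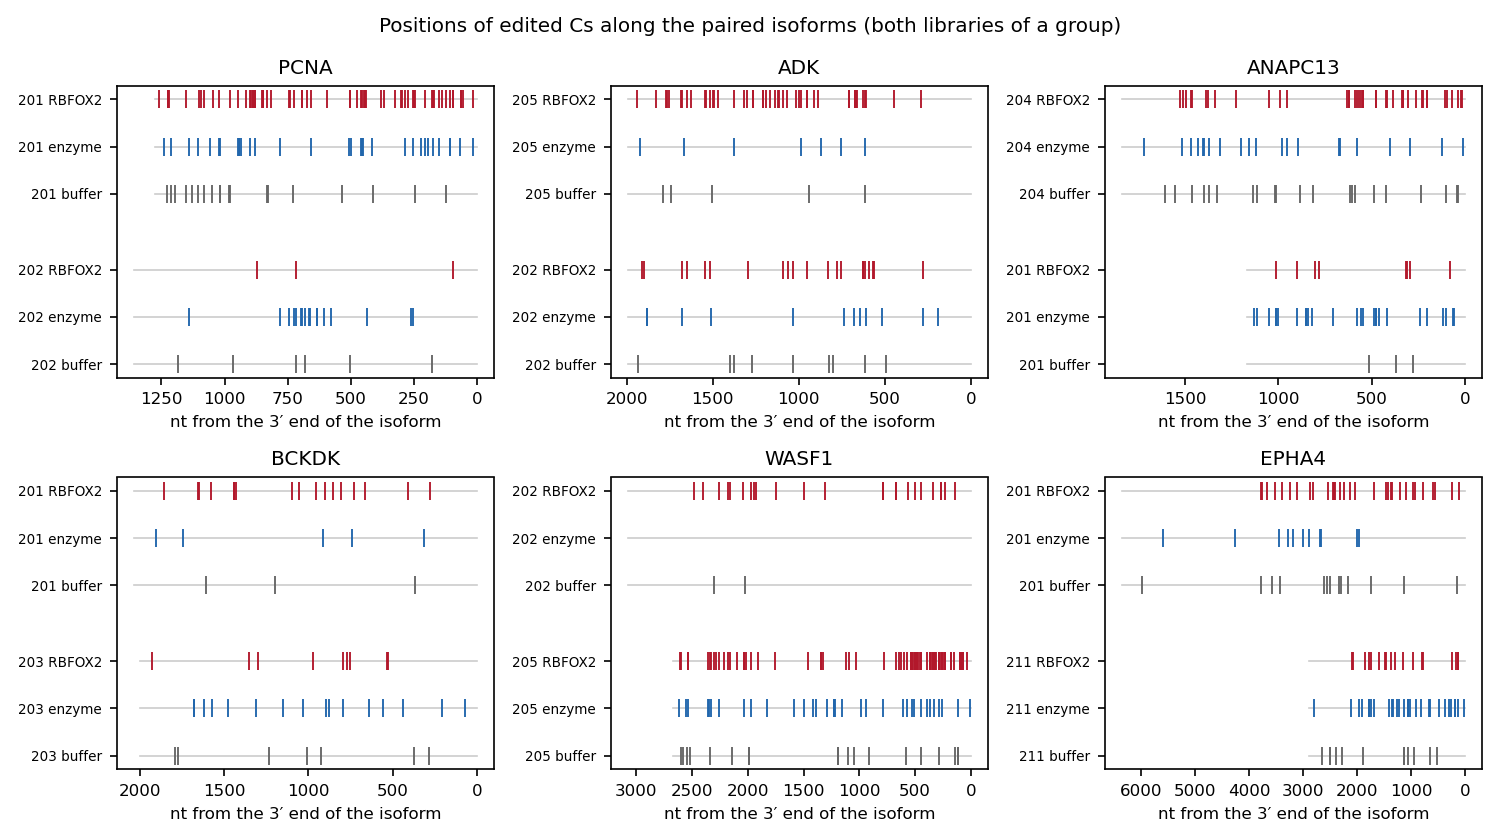
Position of each edited C (ticks) as distance in nt from the 3′ end of its isoform (horizontal axis), with 1 row per paired isoform and group and both libraries of a group together. Ticks of WASF1-205 in RBFOX2-INSCRIBE crowd into the last 703 nt, the 3′ UTR.

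By region, the 12 isoforms with a coding sequence had 4.22 and 4.37 edited Cs per 100 Cs of 3′ UTR in RBFOX2-INSCRIBE, 1.09 and 2.48 in enzyme-only and 1.19 and 0.744 in buffer-only libraries. In coding sequence the values were 2.16 and 2.14, 1.23 and 1.07, and 0.575 and 0.739. In the 5′ UTR they were 1.18 and 1.18, 1.45 and 0.814, and 0.452 and 1.45. Over the 8956 listed isoforms with a coding sequence, the rates were 3.26, 3.40, 1.16, 2.25, 0.860 and 0.837 in the 3′ UTR, 1.96, 1.95, 1.03, 1.69, 0.960 and 0.947 in coding sequence and 1.07, 1.03, 0.676, 0.991, 0.733 and 0.731 in the 5′ UTR. The higher RBFOX2-INSCRIBE rates in coding sequence and 3′ UTR were thus shared with the whole series, and the 6 genes were picked in part on these libraries. For 2 against 2 libraries the smallest p of a two-sided exact permutation test is 0.33.

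WASF1-205 had 25 and 21 edited Cs among the 104 Cs of its 3′ UTR in RBFOX2-INSCRIBE, 4 and 8 in enzyme-only and 4 and 2 in buffer-only libraries. ANAPC13-204 had 20 and 9, 2 and 5, and 4 and 6 among 169 Cs of the same region. PCNA-201 had 8 and 14, 4 and 7, and 2 and 0 among 49. The ADK-205 gain lay mostly in coding sequence, with 16 and 20 edited Cs in RBFOX2-INSCRIBE, 1 and 4 in enzyme-only and 1 and 3 in buffer-only libraries among 214.

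APOBEC1 prefers a C that follows an A or U. Of the edited Cs of the 6 genes, 75.8% and 80.2% followed an A or U in RBFOX2-INSCRIBE, 68.4% and 61.9% in enzyme-only and 37.5% and 42.2% in buffer-only libraries, beside 47.9% of all their Cs. The buffer-only libraries, which had no enzyme, lay below the share of all Cs, and the libraries with enzyme lay above it. Over the whole series the shares were 73.7%, 75.0%, 62.0%, 69.3%, 42.0% and 42.6%, so the 6 genes followed the same order of groups.

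**Figure D4:**
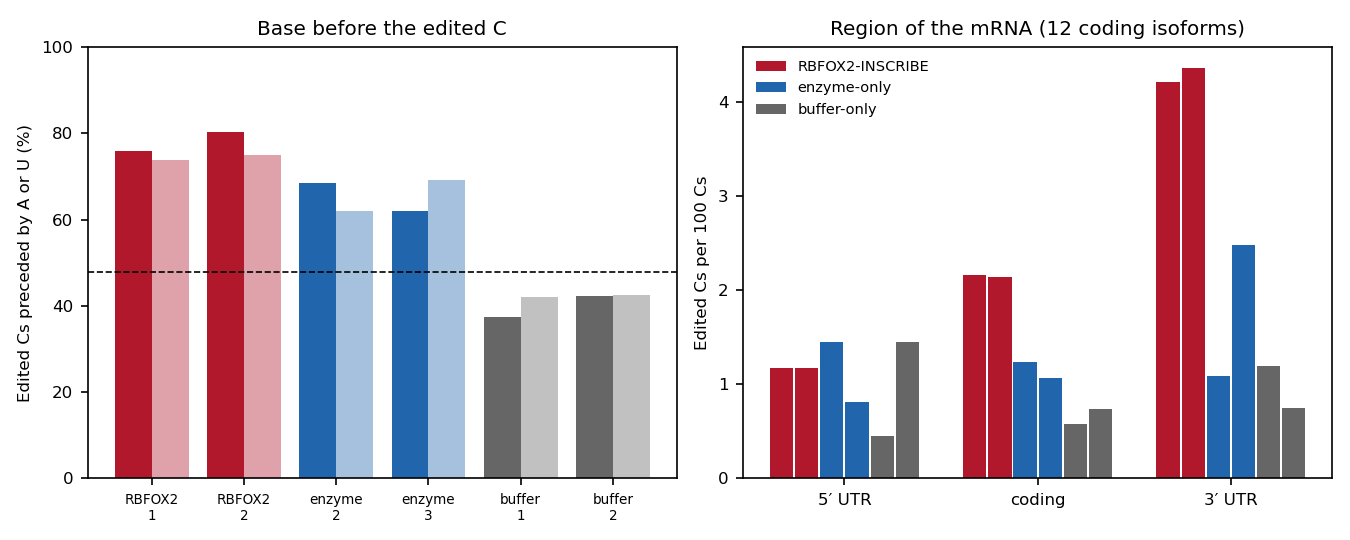
Left, share of edited Cs that follow an A or U in each library for the 6 genes (full colour) and the whole series (pale), with the share of all Cs of the 6 genes, 47.9%, as a dashed line. Right, edited Cs per 100 Cs by region of the mRNA, with 1 bar per library. RBFOX2-INSCRIBE bars reach 4.22 and 4.37 in the 3′ UTR.

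**Figure D5:**
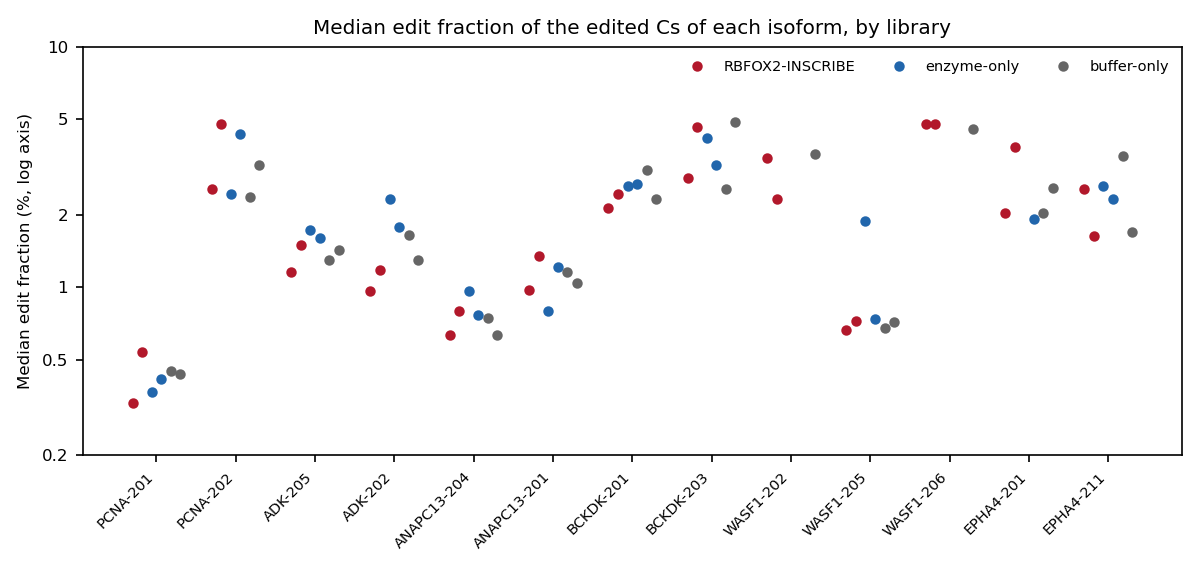
Median edit fraction in percent (vertical log axis) of the edited Cs of each isoform (horizontal axis), with 1 point per library and none where a library listed no edit. PCNA-202 lies between 2.38% and 4.77% and PCNA-201 between 0.33% and 0.54%.

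The edit fractions differed between the isoforms of a pair, in controls as in RBFOX2-INSCRIBE. The median fraction of PCNA-201 was 0.329% and 0.538% in RBFOX2-INSCRIBE, 0.365% and 0.413% in enzyme-only and 0.446% and 0.437% in buffer-only libraries. That of PCNA-202 was 2.56% and 4.77%, 2.44% and 4.35%, and 2.38% and 3.23%. The isoform with more edited Cs thus had the lower median fraction in each of the 6 libraries.

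WASF1-205 had median fractions of 0.667% and 0.727% in RBFOX2-INSCRIBE, 1.89% and 0.735% in enzyme-only and 0.676% and 0.719% in buffer-only libraries, and WASF1-202 had 3.45% and 2.33% in RBFOX2-INSCRIBE. In BCKDK the medians of both isoforms lay between 2.13% and 4.86%. Of the 705 edited Cs of the 13 isoforms, 489 (69.4%) were listed at the lowest fraction that their isoform showed in that library, within 5%, and 227 (32.2%) reached 2%. An edit at the lowest fraction may rest on 1 read, and that fraction is then 1 over the reads at the position. For ADK-205 the lowest fraction was 1.16% and 1.49% in RBFOX2-INSCRIBE libraries. It was 1.72% and 1.59% in enzyme-only and 1.23% and 1.43% in buffer-only libraries. The part of these fractions, and of the reads behind them, in the unequal counts was not tested. The highest values were 1 position of BCKDK-203 at 100% in RBFOX2-INSCRIBE replicate 2 and 1 of EPHA4-211 at 50% in enzyme-only replicate 3.

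UGCAUG, searched as those letters on the mRNA strand, occurred in 7 of the 13 isoforms, the 2 of ADK, the 2 of BCKDK and the 3 of WASF1, beside 55.7% of the 9808 isoforms with an edited C. GCAUG, which UGCAUG contains, occurred in 12 of 13, beside 88.1%. Of the edited Cs, 1.65% and 2.60% lay within 50 nt of UGCAUG in the same exon in RBFOX2-INSCRIBE, 0% and 2.65% in enzyme-only and 0% and 3.13% in buffer-only libraries, beside 2.36% of all Cs of the 13 isoforms. For GCAUG the shares were 6.04%, 8.33%, 4.08%, 6.19%, 7.14% and 10.9%, beside 7.50%. Neither share set RBFOX2-INSCRIBE libraries apart from the controls, and no match within the window says nothing about binding elsewhere.

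The UGCAUG with the most edited Cs nearby lies in an exon that both ADK isoforms share, at chr10:74394290-74394295, shown with 12 nt on each side and the motif in capitals.
ADK, coding, chr10:74394278-74394307, plus strand: aggaacttgtgcTGCATGcatcactggtga
Within 50 nt of it ADK-205 had 1 and 4 edited Cs in RBFOX2-INSCRIBE, 0 and 0 in enzyme-only and 0 and 1 in buffer-only libraries. ADK-202 had 2 and 0, 0 and 1, and 0 and 0 there. The BCKDK sites at chr16:31110486-31110491 and chr16:31112720-31112725 and the WASF1 site at chr6:110103415-110103420 had at most 1 edited C in any library and isoform.

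The genes that work with each of the 6 were followed as lists against buffer-only, with limma over all isoforms. Of genes of the replication clamp and its partners 6 of 15 isoforms rose, of the adenosine and methionine cycle 9 of 13, of the anaphase-promoting complex 7 of 13, of branched-chain amino acid breakdown 7 of 11, of the WAVE complex and ARP2/3 10 of 14 and of Eph receptors and ephrins 0 of 2. In no list did an isoform fall, and none was called in the other contrasts. Their medians lay between 1.07 for the anaphase-promoting complex and 1.70 for branched-chain amino acid breakdown, beside 1.57 over all isoforms and 60.0% called.

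In each list with a called isoform, the 1 with the largest rise is named here. The list of Eph receptors and ephrins had none. MSH6-201, MCCC2-201 and ABI1-208 reached the minimum mean of 5 edited Cs only through the RBFOX2-INSCRIBE libraries. For these isoforms a rise is built into the filter. MSH6-201, of a mismatch repair protein, had 25 and 13 edited Cs in RBFOX2-INSCRIBE, 0 and 13 in enzyme-only and 3 and 1 in buffer-only libraries. ADSS2-201, of an enzyme that makes adenylosuccinate, had 115 and 108, 38 and 99, and 19 and 15. CDC27-201, of a scaffold subunit of the anaphase-promoting complex, had 160 and 190, 44 and 110, and 36 and 41.

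MCCC2-201, of a leucine breakdown enzyme, had 19 and 18 edited Cs in RBFOX2-INSCRIBE, 0 and 9 in enzyme-only and 0 and 0 in buffer-only libraries. With each buffer-only library set to an assumed 3 edited Cs, the RBFOX2-INSCRIBE mean was 6.17-fold higher, which is no lower bound. ABI1-208, of a WAVE complex subunit, had 16 and 34, 0 and 3, and 5 and 1. Enzyme-only replicate 2 was lower than replicate 3 in these 5 isoforms, as it was in edited Cs over the whole series.

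The gene most like each of ADK, EPHA4, ANAPC13, BCKDK and WASF1 was sought by the Euclidean distance between pair differences, centred over the 6 libraries, among 581 genes. It was NCK1 for ADK (distance 0.93), TRAPPC13 for EPHA4 (0.97), AASDHPPT for ANAPC13 (1.07), FBLN1 for BCKDK (1.134) and LUC7L2 for WASF1 (1.40). For NCK1, NCK1-201 had 20 and 33 edited Cs in RBFOX2-INSCRIBE, 5 and 6 in enzyme-only and 2 and 1 in buffer-only libraries, and NCK1-207 had 11 and 18, 8 and 7, and 3 and 2. For LUC7L2, LUC7L2-202 had 118 and 110, 60 and 115, and 73 and 73, and LUC7L2-207 had 9 and 14, 0 and 0, and 1 and 3. LUC7L2-207, like WASF1-202, had no edited C in either enzyme-only library.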

How the data were processed

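Long-read cDNA libraries were made with the Kinnex full-length kit and sequenced on a PacBio Revio system. The authors used ccs (8.0.0), skera (1.2.0), lima (2.9.0) and refine (4.1.1), aligned reads to hg38 with pbmm2 (1.13.0), kept a quality of at least 20 and assigned reads uniquely to isoforms with IsoQuant (3.3.0). They removed dbSNP positions and edits shared by all samples, which lowers recurrence between libraries. Each deposited value is a fraction, edited reads over reads of an isoform at a position, without the numbers of reads. The annotation version was not given in the sources used here, and GENCODE release 44 was applied.

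Positions on the isoform strand and in its exons were counted (95.2% of those listed). limma (3.58.1, R 4.3.3, trend and robust settings) was run on log2((edited Cs + 0.5) / Cs), with Benjamini-Hochberg adjustment. It took all isoforms whose mean reached 5 edited Cs among the libraries tested, or the difference between the 2 most edited isoforms of a gene. A run on simulated data gave the replicates of a group the same expected counts, unlike the enzyme-only libraries. That run does not show how the fit handles such differences between replicates. Python 3.11.15 with pandas 2.3.3 and numpy 2.4.6 did the rest. Named genes were the 6 members, the gene with the most similar pair difference for each (that for PCNA is not reported here), and the isoform with the largest called rise in each list. The members and lists were chosen with earlier results of these data known. Alternatives were another pseudocount, minimum, edit fraction, strand rule, scaling, joint fit, replicate block and each library left out.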

Additional observations from a re-analysis of the deposited data

How the results depend on the processing

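The counts of isoforms or genes called by limma depended strongly on the processing, and the cause was not tested. Isoforms called between RBFOX2-INSCRIBE and buffer-only numbered 3221, and 599 when only fractions of 2% or more counted, 124 after scaling to the same total (58 higher and 66 lower, against 3217 and 4) and 333 to 2559 with 1 library left out. Scaling took the median log2 difference of all isoforms from 1.57 to 0.03. Between enzyme-only and buffer-only they numbered 37, and 24 with a pseudocount of 1, 6 and 8 with a minimum mean of 1 and 10, 0 with the edit fraction minimum (153 at an unadjusted p under 0.05), 0 after scaling (388 unadjusted), 82 in a fit of all 3 groups, 12 with the replicate block and 0 to 3 with 1 library left out. Between RBFOX2-INSCRIBE and enzyme-only they numbered 3, and 60 and 0 with pseudocounts of 1 and 0.1 (773 unadjusted for the latter), 0 and 33 with a minimum mean of 1 (1024 unadjusted) and 10, 0 with the edit fraction minimum (212 unadjusted), 0 after scaling (403 unadjusted), 68 with the replicate block and 0 to 1853 with 1 library left out, the highest without enzyme-only replicate 3. Gene pairs called against buffer-only numbered 1, and 0 and 3 with a minimum mean of 1 (68 unadjusted) and 10, 3 with the edit fraction minimum, 0 after scaling (42 unadjusted), 0 with the replicate block (43 unadjusted) and 0 to 6 with 1 library left out. Those against enzyme-only numbered 0, and 1 with the edit fraction minimum and 0 to 6 with 1 library left out.

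Replicate numbers did not pair the samples: deviations of same-numbered libraries correlated at 0.02, -0.04 and 0.11 in the 3 contrasts, and for enzyme-only the title and the replicate label give different numbers. ADK-202, BCKDK-201 and ANAPC13-201 passed the filter only through the group where they are high, which was also used to choose the genes. Their calls are thus no test of these isoforms. The replicate block ended the calls of ADK-202 against buffer-only and of ANAPC13-201 in enzyme-only. Scaling and a minimum mean of 1 also ended the call of ANAPC13-201, which rose by 2.42 to 3.15 with 1 library left out. Scaling, that minimum and the joint fit ended the call of ADK-202, whose value was below 0 after scaling. Without buffer-only replicate 1 or 2 its value was 0.99 or 1.28. The joint fit ended the call of BCKDK-201, whose value was 1.83 without buffer-only replicate 2.

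Of 452 values of member isoforms and pairs under the alternatives, 396 kept their direction and side of the threshold or moved by less than the replicate spread, 29 fell short of the threshold, 15 moved further and 12 changed sign. None of the 12 altered values was past the threshold. ADK-202 against buffer-only, given above as a value with no test, had been past it before scaling changed its sign. The minimum mean, joint fit and replicate block leave a log2 difference unchanged, so part of the 396 was fixed in advance. Against buffer-only, scaling gave RBFOX2-INSCRIBE values of -0.31 for EPHA4-201, -0.27 for ADK-202, -1.003 for EPHA4-211 and -0.57 for ANAPC13-204. In enzyme-only against buffer-only, it gave -0.43 for ADK-202, -0.015 for WASF1-205 and -0.57 for ANAPC13-204. With 1 library left out, EPHA4-211 ranged from -0.24 (without RBFOX2-INSCRIBE replicate 2) to 1.05 in the first of these comparisons. In the second, EPHA4-201 ranged from -3.71 to 0.81 (without enzyme-only replicate 2), ADK-202 from -0.51 (without enzyme-only replicate 3) to 0.93, WASF1-205 from -0.072 (without enzyme-only replicate 3) to 1.35 and ANAPC13-204 from -0.40 (without buffer-only replicate 1) to 0.55.

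The mean share of RBFOX2-INSCRIBE edited Cs near UGCAUG was 2.13% within 50 nt and 2.92% within 200 nt. At fractions of 2% or more, edited Cs were 0.888% of shared Cs in place of 3.18%, and 0.431% of isoform-specific Cs in place of 0.940%. The depth is not given as numbers of reads, and its part in the counts of edited Cs and in their fractions was not tested.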
